A study of Mus musculus with 4 samples.

Results

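Striatal projection neurons are the GABA-releasing output cells of the striatum, the input nucleus of the basal ganglia. The direct pathway cells carry the dopamine receptor Drd1 and the peptide gene Tac1, and the indirect pathway cells carry the dopamine receptor Drd2, the adenosine receptor Adora2a and the enkephalin gene Penk. Both kinds express Rarb, a retinoic acid receptor, Rgs9, which shortens G protein signals, and Pde10a, a phosphodiesterase that breaks down cyclic nucleotides. A small number of such nuclei were present in libraries of mouse cortex, and 127 of 54550 nucleus barcodes in 4 libraries met the rule by which they were chosen here. The rule asked for mitochondrial transcripts at 5% of unique molecular identifiers (UMIs, 1 per captured RNA molecule) or less, at least 1 UMI of Gad1 and Gad2 together (the enzymes that make GABA), at most 2 UMIs of the excitatory genes Slc17a7 and Neurod6, and at least 6 UMIs of Rarb, Rgs9, Drd1, Drd2 and Adora2a together. The nuclei were chosen by the measured UMIs of these genes, so their levels are given as a description only.

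The study isolated nuclei from the cortex of 2 Setdb1-CK-cKO mice (here, knockout) and 2 wildtype mice, all of 5 months and the C57BL/6 strain, and made 1 droplet 3′ library per animal. Setdb1 encodes an enzyme that methylates histone H3 at lysine 9, a mark of silent chromatin. The mutant is a conditional knockout, and the labels explain neither the CK part nor which cells recombine, so deletion in striatal cells is not known. How the cortex was dissected from the underlying striatum is likewise not given in the sources used here.

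The rule found 41 and 20 nuclei in the knockout libraries, against 38 and 28 in the wildtype libraries. That was 0.348% (exact Clopper-Pearson 95% interval 0.250 to 0.471) and 0.144% (0.0879 to 0.222) of barcodes in the knockout libraries. In the wildtype libraries it was 0.262% (0.186 to 0.360) and 0.195% (0.130 to 0.282), and these intervals cover counting error only. The lowest share and the highest share both belonged to knockout animals, and the means were 0.246% ± 0.144 in knockout and 0.229% ± 0.0476 in wildtype (SD, n = 2 each; exact two-sided permutation p = 1, where 2 against 2 cannot give less than 0.333). Set against other inhibitory nuclei, there were 12.7 and 11.6 striatal nuclei per 100 in knockout and 10.9 and 12.4 per 100 in wildtype. A share of nuclei here also depends on how much striatum each dissection took, which cannot be told apart from a change in cell number.

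Depth was similar in the chosen nuclei of the 4 animals. They held 198309 and 74859 UMIs in the knockout libraries, against 190972 and 122832 UMIs in the wildtype libraries, with medians of 4284 and 3674.5 UMIs per nucleus in knockout and 4409.5 and 3863 in wildtype. Knockout replicate 2 was the smallest and shallowest set. Libraries shared 48 to 64 barcode sequences pairwise. Scrublet, which marks barcodes that look like 2 merged nuclei, marked 6 of the 127. The labelled sex of the knockout animals went against their RNA. The chosen nuclei of knockout replicate 1, listed as female, had 0 UMIs of Xist and 15 of the Y-linked Uty. Those of knockout replicate 2, listed as male, had 121 of Xist and 0 of Uty. The chosen nuclei of the wildtype animals followed their labels, with 4 and 124 UMIs of Xist and 16 and 0 of Uty. Both doubtful libraries are labelled knockout, so comparisons of genotype keep the same groups if labels were exchanged between those 2 only. This was assumed and not tested. Results without each of these libraries are given where they change.

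The genes used by the rule were carried mainly by Rarb and Rgs9. Rarb had UMIs in 126 and Rgs9 in 123 of the 127 nuclei, and the pair made up 91.0% of the UMIs that the rule counted. Drd2 was found in 29 nuclei, Drd1 in 27 and Adora2a in 15. In 68 nuclei Rarb and Rgs9 alone met the limit. Levels of Rarb were 932 and 1120 counts per 1000000 UMIs after scaling between libraries (CPM) in knockout and 943 and 1050 CPM in wildtype, and those of Rgs9 were 804 and 907 CPM in knockout and 1083 and 953 CPM in wildtype.

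Other genes of striatal projection neurons, which the rule did not use, followed the number of marker UMIs. Pde10a had UMIs in all 127 nuclei. Pooled over libraries, its level, as UMIs per 1000000 UMIs of the nuclei without scaling between libraries (unscaled CPM), was 922 in nuclei of the same Gad and excitatory limits with 0 marker UMIs, 1147 with 2 to 3, 2116 with 4 to 5 (just outside the rule), 2960 with 6 to 7 (just inside) and 3454 with 10 or more. Ppp1r1b, which encodes the dopamine-regulated phosphatase inhibitor DARPP-32, gave 5.83 unscaled CPM with 0 marker UMIs, 35.9 with 4 to 5, 45.3 with 6 to 7 and 54.8 with 10 or more. Foxp1, a transcription factor of striatal projection neurons, gave 401, 930, 1820 and 2162 unscaled CPM in the same 4 classes. The nuclei just outside the limit therefore lay between those without marker UMIs and those inside it for all 3 genes. Scn4b, a sodium channel subunit of striatal neurons, was scarce, with 6 and 2 UMIs in knockout and 15 and 5 UMIs in wildtype.

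**Figure D1:**
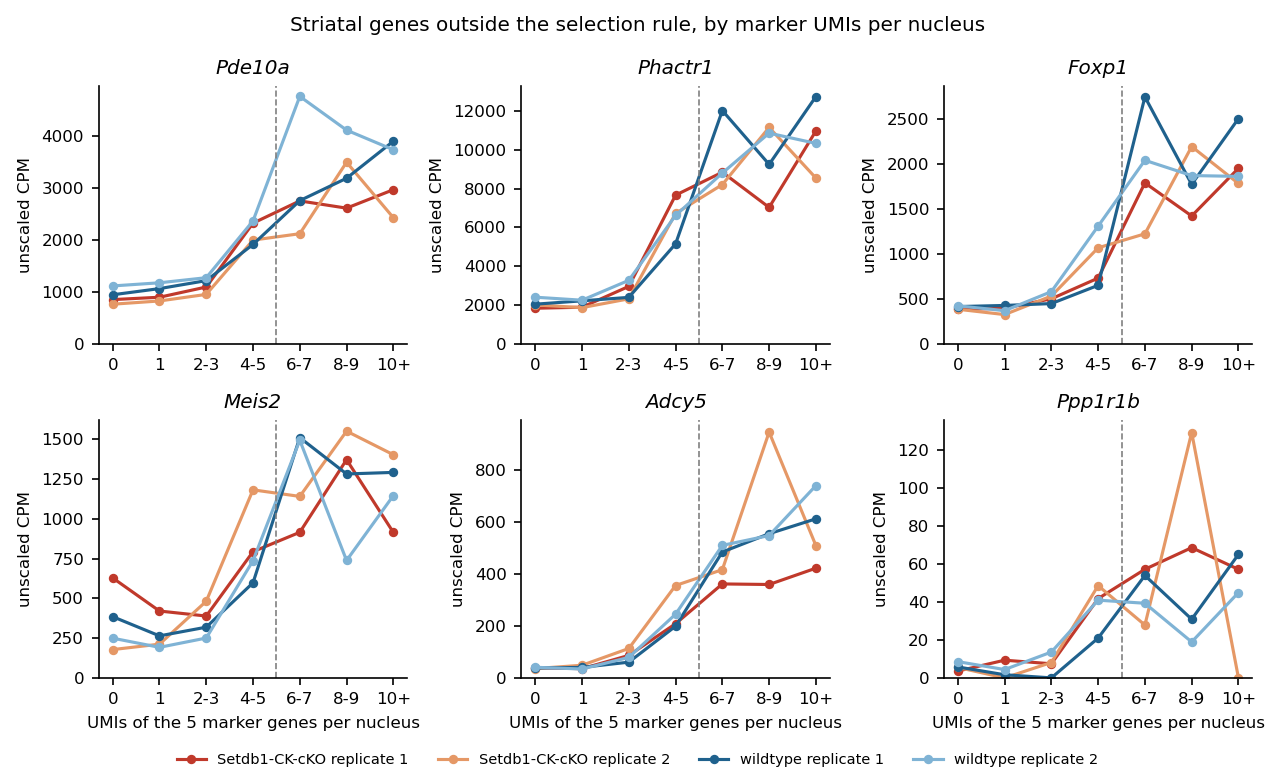
Level of 6 striatal genes that the rule did not use (vertical axes, unscaled CPM) by the number of UMIs of the 5 rule genes in a nucleus (horizontal axes), with 1 line per library, among nuclei with Gad UMIs and at most 2 excitatory UMIs; the dashed line marks the limit of 6. Levels were higher to the right of the line than at 0 in the 4 libraries for the genes plotted, except Ppp1r1b at 10 or more in knockout replicate 2, whose class held 4 nuclei.

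Against other inhibitory nuclei of the same libraries (1069 nuclei with at least 3 Gad UMIs and at most 1 marker UMI), genes were ranked by the ratio of their levels. Among 1147 genes with at least 100 CPM in the striatal sum of every library, leaving out the rule genes and ranking by the lowest ratio in any library, the first named gene was Sh3rf2, a ubiquitin ligase scaffold. It had 118 and 133 CPM in knockout striatal nuclei and 193 and 130 CPM in wildtype striatal nuclei, and at most 3.46 CPM in the other inhibitory nuclei of any library. Pde7b, a cAMP phosphodiesterase, ranked at place 4, with 1342 and 1120 CPM in knockout and 1415 and 1555 CPM in wildtype striatal nuclei, and a ratio of 10.5 to 14.5 over other inhibitory nuclei. Adcy5, the main adenylyl cyclase of the striatum, ranked at place 8 (ratio 8.64 to 13.8) and Foxp2, a transcription factor, at place 9 (ratio 8.46 or more). The ranking is a description, since the nuclei were chosen for related genes, and the genes between these places are not described.

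Markers of interneurons, glia and vessels were low but present, while those of granule-like and cortical excitatory neurons were not low. The 6 olfactory and intercalated granule-like neuron markers summed to 489 and 294 unscaled CPM in knockout and 424 and 431 in wildtype striatal nuclei. In other inhibitory nuclei the same markers summed to 746 and 384 in knockout and 672 and 357 in wildtype. The summed level of 12 interneuron markers was 867 and 494 unscaled CPM in knockout and 471 and 415 in wildtype striatal nuclei, against 5787 and 5934 in knockout and 5963 and 6863 in wildtype other inhibitory nuclei. Of the astrocyte markers, Aqp4 was at 0 UMIs, and the summed level of the 6 was 166 and 80.1 unscaled CPM in knockout and 372 and 236 in wildtype. The 5 oligodendrocyte markers summed to 121 and 187 unscaled CPM in knockout and 178 and 301 in wildtype, where oligodendrocyte nuclei, chosen on these same markers, had 8388 and 8578 in knockout and 8635 and 8222 in wildtype. The 6 endothelial and mural markers summed to 75.6 and 93.5 unscaled CPM in knockout, from 15 and 7 UMIs, and to 15.7 and 0 in wildtype, from 3 and 0 UMIs, with Rgs5 at 0. The 9 cortical excitatory markers summed to 777 and 935 unscaled CPM in knockout and 639 and 839 in wildtype striatal nuclei. Excitatory nuclei had 1622 and 1852 in knockout and 1612 and 1691 in wildtype, and other inhibitory nuclei 747 and 868 in knockout and 667 and 743 in wildtype. Interneuron, endothelial and mural markers were higher in both knockout libraries and astrocyte markers lower. The part of any of these marker groups in the results below was not tested.

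Peptide genes, which the rule did not use, were compared between nuclei split by their receptor UMIs, a split set after the data were seen. There were 25 nuclei with Drd1 UMIs only, 32 with UMIs of Drd2 or Adora2a only, 2 with both and 68 with neither. Drd1-only nuclei numbered 7 and 2 in knockout and 8 and 8 in wildtype, and Drd2 or Adora2a-only nuclei numbered 11 and 5 in knockout and 12 and 4 in wildtype. Penk gave 0 UMIs in the Drd1-only nuclei, out of 119618 UMIs, and 20 UMIs in 11 of the 32 Drd2 or Adora2a-only nuclei. Tac1 gave 7 UMIs in 7 Drd1-only nuclei and 2 UMIs in 2 Drd2 or Adora2a-only nuclei. Foxp2 was at 460 unscaled CPM in Drd1-only nuclei and 153 in Drd2 or Adora2a-only nuclei. Pde10a differed less, at 2918 unscaled CPM in Drd1-only and 3487 in Drd2 or Adora2a-only nuclei. With the limit of 2 receptor UMIs first set for a type, 2 nuclei were of the Drd1 type and 23 of the Drd2 type, which was under the 30 per library asked for, so no test by type was run.

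**Figure D2:**
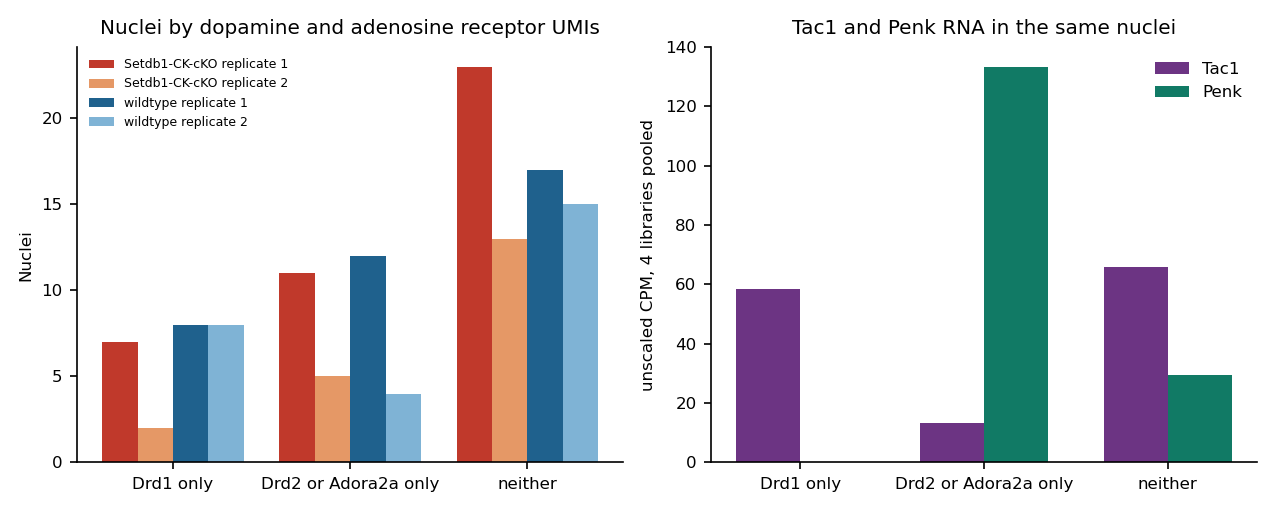
Left, number of nuclei (vertical axis) with UMIs of Drd1 only, of Drd2 or Adora2a only, or of neither (horizontal axis), 1 bar per library, knockout left of wildtype. Right, level of Tac1 and Penk in the same groups, 4 libraries pooled (unscaled CPM). Penk is at 133 in the Drd2 or Adora2a-only nuclei and 0 in the Drd1-only nuclei.

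Knockout was compared with wildtype on the counts summed per animal, with edgeR's quasi-likelihood test over 3163 genes that passed a filter on low counts. One gene passed an adjusted p of 0.05, Cd59b, which was higher in knockout, so 1 of 3163 genes tested (0.0316%) was called, and 0 were called lower. At an unadjusted p under 0.05 there were 226 genes (7.15%), 102 higher (3.22%) and 124 lower (3.92%). The DESeq2 and limma-voom alternatives called 0 genes, and edgeR with 1 library left out called 25 without knockout replicate 1, 17 without knockout replicate 2, 6 without wildtype replicate 1 and 11 without wildtype replicate 2. A fit with 1 library left out holds a single animal of 1 genotype, which is assumed to vary like the others. With all 4 libraries the test called 305 of 14863 genes (2.05%) in 3821 cortical excitatory nuclei and 25 of 10562 genes (0.237%) in the other inhibitory nuclei, which had many more UMIs. In the striatal sums the median standard error of a log2 fold change was 0.39, against 0.19 in excitatory and 0.27 in other inhibitory nuclei. In sums of this kind, less RNA per cell and fewer cells of a kind within the chosen nuclei cannot be told apart.

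**Figure D3:**
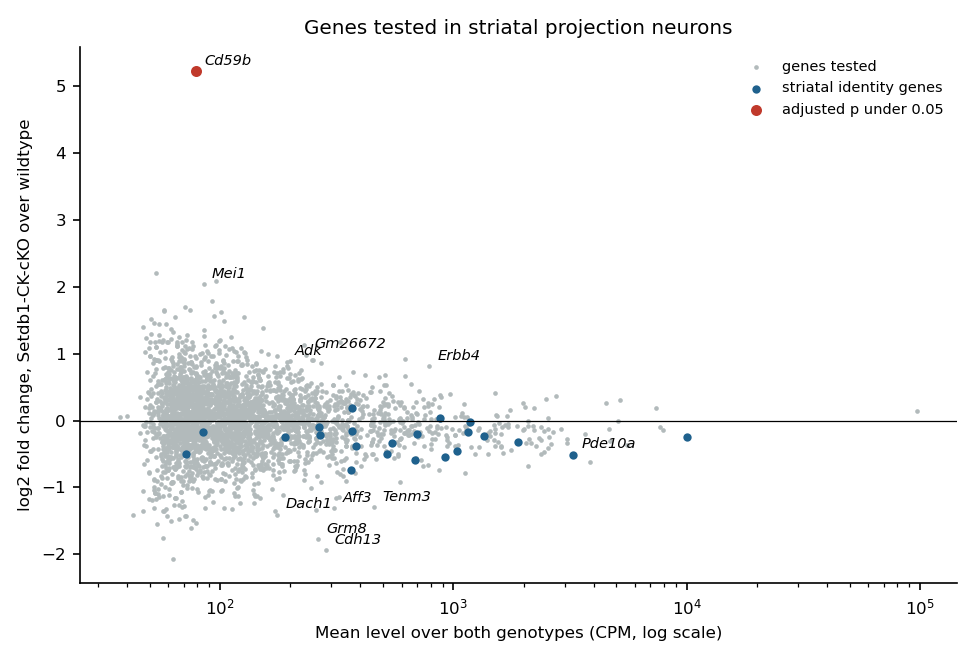
Each point is 1 of the 3163 genes tested in striatal projection neurons, with the mean CPM of both genotypes on a log axis (horizontal) and the log2 fold change, knockout over wildtype (vertical). Cd59b (red) stands at 5.22 and is the gene with an adjusted p under 0.05; the striatal identity genes (blue) lie mostly below 0.

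Cd59b encodes a membrane-anchored inhibitor of the complement attack complex and lies on chromosome 2 of GRCm38 (104069849 to 104091187, plus strand), where no other annotated gene overlaps it. It had 28 and 13 UMIs in the knockout striatal sums, or 138 and 173 CPM, and 1 and 0 UMIs in the wildtype sums, or 5.36 and 0 CPM. The groups did not overlap, and 1 wildtype nucleus held the single wildtype UMI. The fitted log2 fold change was 5.22 ± 0.72 (SE; edgeR adjusted p = 0.0231). This fitted value depends on a prior count, and the ratio of summed UMIs was 47.1 with an exact counting interval of 7.99 to 1905. The gene passed the filter on low counts through the knockout libraries alone.

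Cd59b RNA was spread over many of the knockout nuclei. UMIs were found in 17 of 41 nuclei (41.5%, exact 95% interval 26.3 to 57.9) and 9 of 20 nuclei (45.0%, 23.1 to 68.5) in the knockout libraries. In the wildtype libraries they were found in 1 of 38 nuclei (2.63%, 0.0666 to 13.8) and in 0 of 28 (0%, with an upper limit of 12.3 by the same interval). These shares are of nuclei with a UMI, not of nuclei that express the gene. Knockout nuclei with UMIs were present in each receptor group, in 4 of 9 Drd1-only nuclei, 10 of 16 Drd2 or Adora2a-only nuclei and 12 of 36 nuclei with neither. In knockout barcodes under the same Gad and excitatory limits, the level was 7.38 unscaled CPM with 0 marker UMIs and 194 with 10 or more.

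In other nuclei of the same knockout libraries the gene was low. Excitatory nuclei had 11.7 and 11.7 CPM in knockout and 3.17 and 2.95 CPM in wildtype, a log2 fold change of 1.92 ± 0.27 (edgeR adjusted p = 0.00239). UMIs were found in 5.69% and 4.86% of knockout excitatory nuclei, whose median depth was 4926.5 and 4037 UMIs, against 1.65% and 1.42% of wildtype ones, at medians of 4712 and 4438.5 UMIs. Other inhibitory nuclei had 2.40 and 4.73 CPM in knockout and 0 and 1.15 CPM in wildtype. Oligodendrocyte nuclei, a gate chosen after the data were seen, had 20.5 and 15.5 CPM in knockout and 0 and 8.66 CPM in wildtype. The test of the difference in effect, striatal minus excitatory, gave 3.67 ± 1.35 on the log2 scale with an edgeR adjusted p of 0.64, and striatal minus other inhibitory gave 3.05 ± 3.67 with an edgeR adjusted p of 0.98. The effect is therefore not shown to differ between these nuclei.

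The Cd59b call was not stable to the method. Its adjusted p was 0.501 with DESeq2, 0.429 with limma-voom and 0.785 in the 48 nuclei with at least 10 marker UMIs. It was 0.375 with the replicate number as a block, and same-numbered animals had the same sex by their Xist and Uty UMIs, so this is also a block by that sex. The log2 fold change stayed between 4.34 and 7.33 over 15 alternatives. The paralogue Cd59a shares an exact stretch of up to 104 bases with Cd59b transcripts, so reads wholly within it do not tell these genes apart. How such reads were counted is not given in the sources used here. Cd59a had 10 and 1 UMIs in knockout and 1 and 1 in wildtype striatal nuclei.

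Beside Cd59b, Mei1 (a gene of meiotic recombination, described with its group below) and Lrrc8d had the largest positive log2 fold changes among the genes that the naming rule selects, and neither passed the test. Lrrc8d encodes a subunit of the volume-regulated anion channel and was selected by its p in the difference from other inhibitory nuclei. It overlaps a pseudogene and another gene on the opposite strand, and the use of strand in counting is not stated. It had 109 and 120 CPM in knockout and 37.5 and 32.6 CPM in wildtype striatal nuclei, groups that did not overlap, with a log2 fold change of 1.66 ± 0.45 (edgeR adjusted p = 0.476). In excitatory nuclei it had 59.0 and 55.7 CPM in knockout and 59.0 and 58.6 CPM in wildtype, and the difference in effect did not pass (1.72 ± 0.51, edgeR adjusted p = 0.356). The difference from other inhibitory nuclei, by which Lrrc8d was selected, did not pass either, as 0 of 3163 genes passed there.

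The 250 bases before a RefSeq start of these 3 genes (GRCm38.p6, plus strand) are shown because theirs were the largest positive fold changes. They are chr2:104070816-104071065 for Cd59b, chr15:82082226-82082475 for Mei1, and chr5:105699719-105699968 and chr5:105700560-105700809 for the pair of Lrrc8d starts. The Cd59b, Mei1 and second Lrrc8d stretches lie inside the span of the gene in the GENCODE annotation (Mei1 spans 82069996 to 82126814 and Lrrc8d 105699969 to 105832436), so they are not the outermost start. The last 30 bases of the RefSeq promoter entry were found in 0 GENCODE transcripts of Cd59b, against 2 of Mei1. For the Lrrc8d entries they were found in 1 and 2. The Cd59b start was thus not matched to a GENCODE transcript. Capitals mark each CG dinucleotide, where mammals mainly place DNA methylation.
Cd59b: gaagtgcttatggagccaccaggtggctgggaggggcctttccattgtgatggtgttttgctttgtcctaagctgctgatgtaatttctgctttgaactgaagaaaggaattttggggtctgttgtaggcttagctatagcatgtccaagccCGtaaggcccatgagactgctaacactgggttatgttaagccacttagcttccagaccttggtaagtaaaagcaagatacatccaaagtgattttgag
Mei1: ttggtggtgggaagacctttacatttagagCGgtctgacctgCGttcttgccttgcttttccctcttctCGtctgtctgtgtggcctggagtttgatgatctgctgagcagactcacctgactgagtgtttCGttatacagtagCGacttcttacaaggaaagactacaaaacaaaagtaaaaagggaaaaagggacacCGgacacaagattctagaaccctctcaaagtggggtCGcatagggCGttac
Lrrc8d, first start: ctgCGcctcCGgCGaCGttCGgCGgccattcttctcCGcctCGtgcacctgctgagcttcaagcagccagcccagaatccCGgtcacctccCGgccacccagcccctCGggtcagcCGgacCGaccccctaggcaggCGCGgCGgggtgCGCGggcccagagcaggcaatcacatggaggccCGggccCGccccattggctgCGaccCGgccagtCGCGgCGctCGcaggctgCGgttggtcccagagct
Lrrc8d, second start: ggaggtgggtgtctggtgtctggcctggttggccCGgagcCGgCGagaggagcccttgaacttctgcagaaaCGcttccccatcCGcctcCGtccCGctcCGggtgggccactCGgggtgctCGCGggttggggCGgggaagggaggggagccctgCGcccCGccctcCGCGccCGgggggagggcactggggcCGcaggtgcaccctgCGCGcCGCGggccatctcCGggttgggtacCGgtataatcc
The Cd59b stretch holds 1 CG, and at least 1 was present in 92.1% of 32851 RefSeq promoter stretches of the same length (median 6). The Mei1 stretch holds 8, reached by 43.0% of such stretches, and the Lrrc8d stretches hold 27 and 24, reached by 8.56% and 11.98%. CG reads the same on both strands. These counts describe the letters of the reference, and DNA methylation was not measured.

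The next 4 genes by p were all lower in knockout striatal nuclei, and none of them passed the adjusted threshold. Cdh13 encodes T-cadherin, a cadherin without a transmembrane segment, on chromosome 8 of GRCm38 (118283733 to 119324921, plus strand). It had 83.9 and 173 CPM in knockout and 482 and 399 CPM in wildtype, with groups that did not overlap (635 of 3163 genes, 20.1%, had both knockout libraries below both wildtype libraries). Its log2 fold change was -1.94 ± 0.34 (edgeR adjusted p = 0.131). Of the 90 Cdh13 UMIs of wildtype replicate 1, 20 came from 1 nucleus and 17 from another. Cdh13 UMIs were found in 11 of 41 and 6 of 20 knockout nuclei and in 20 of 38 and 18 of 28 wildtype nuclei. Grm8, a metabotropic glutamate receptor on chromosome 6 (27275119 to 28135178, minus strand), had 78.9 and 187 CPM in knockout and 423 and 366 CPM in wildtype (-1.77 ± 0.35, edgeR adjusted p = 0.279). Dach1, a transcriptional regulator, had 104 and 80.0 CPM in knockout and 273 and 244 CPM in wildtype (-1.40 ± 0.31, edgeR adjusted p = 0.476). Aff3, of a family of transcription elongation factors, had 212 and 120 CPM in knockout and 488 and 415 CPM in wildtype (-1.31 ± 0.30, edgeR adjusted p = 0.476). With 1 library left out, 1 genotype is a single animal, so effect sizes alone are given here. The log2 fold change then lay between -2.38 and -1.34 for Cdh13 and between -2.31 and -1.07 for Grm8. Both were smallest in size without knockout replicate 1. It lay between -1.68 and -1.31 for Dach1 and between -1.90 and -1.09 for Aff3. All 4 genes overlap predicted genes on the opposite strand, and the use of strand in counting is not stated.

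Levels of Cdh13 and Grm8 were also taken by receptor group, pooled over the libraries of a genotype. Cdh13 was at 250 unscaled CPM in knockout and 622 in wildtype Drd1-only nuclei, at 62.2 in knockout and 403 in wildtype Drd2 or Adora2a-only nuclei, and at 102 in knockout and 393 in wildtype nuclei with neither. It was thus lower in knockout in each group. Grm8 was at 111 unscaled CPM in knockout and 765 in wildtype Drd1-only nuclei, at 162 in knockout and 201 in wildtype Drd2 or Adora2a-only nuclei, and at 82.9 in knockout and 305 in wildtype nuclei with neither. Of the 64 Grm8 UMIs of wildtype Drd1-only nuclei, 26 came from 1 nucleus of wildtype replicate 1 with 14173 UMIs in all. That nucleus also held 17 of the 52 Cdh13 UMIs of wildtype Drd1-only nuclei. Another nucleus of wildtype replicate 1 held 20 of the 58 Cdh13 UMIs of wildtype nuclei with neither. The knockout held 9 Drd1-only nuclei and the wildtype 16, and its part in the levels was not tested.

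Effects were compared directly with those in cortical excitatory nuclei of the same animals. The difference passed for 3 of 3163 genes (0.0948%), and 199 genes (6.29%) had an unadjusted p under 0.05. With 1 library left out it passed for 1 gene without knockout replicate 1, 10 without knockout replicate 2, 1 without wildtype replicate 1 and 5 without wildtype replicate 2. For Cdh13 it was -1.78 ± 0.32 (edgeR adjusted p = 0.0127). Its level in excitatory nuclei was 313 and 457 CPM in knockout and 374 and 449 CPM in wildtype, groups that overlap, with a log2 fold change of -0.10 ± 0.15. For Bc1, a short non-coding RNA of neuronal dendrites, the difference was -1.61 ± 0.31 (edgeR adjusted p = 0.0163). Bc1 had 553 and 600 CPM in knockout and 279 and 480 CPM in wildtype striatal nuclei, but 1503 and 4724 CPM in knockout and 417 and 608 CPM in wildtype excitatory nuclei. Knockout replicate 2 stood high in excitatory nuclei and, at 3971 CPM, in other inhibitory nuclei, where knockout replicate 1 had 645 CPM.

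For Erbb4, a neuregulin receptor abundant in interneurons, the difference was 1.18 ± 0.23 (edgeR adjusted p = 0.0164). Erbb4 had 1204 and 760 CPM in knockout and 418 and 765 CPM in wildtype striatal nuclei, which overlap. Its effect in striatal nuclei alone was 0.81 ± 0.30 (edgeR adjusted p = 0.599), and lay between 0.40 and 1.26 with a library left out. In excitatory nuclei Erbb4 had 115 and 108 CPM in knockout and 112 and 172 CPM in wildtype. Its level in other inhibitory nuclei was 4247 and 4442 CPM in knockout and 4652 and 4954 CPM in wildtype. The interneuron marker sum was also highest in knockout replicate 1, at 867 unscaled CPM, and its part in the Erbb4 difference was not tested. Against other inhibitory nuclei, 0 differences passed with edgeR (0.0%), and 183 genes (5.79%) had an unadjusted p under 0.05. There, 5 passed without knockout replicate 1 and 14 without knockout replicate 2.

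**Figure D4:**
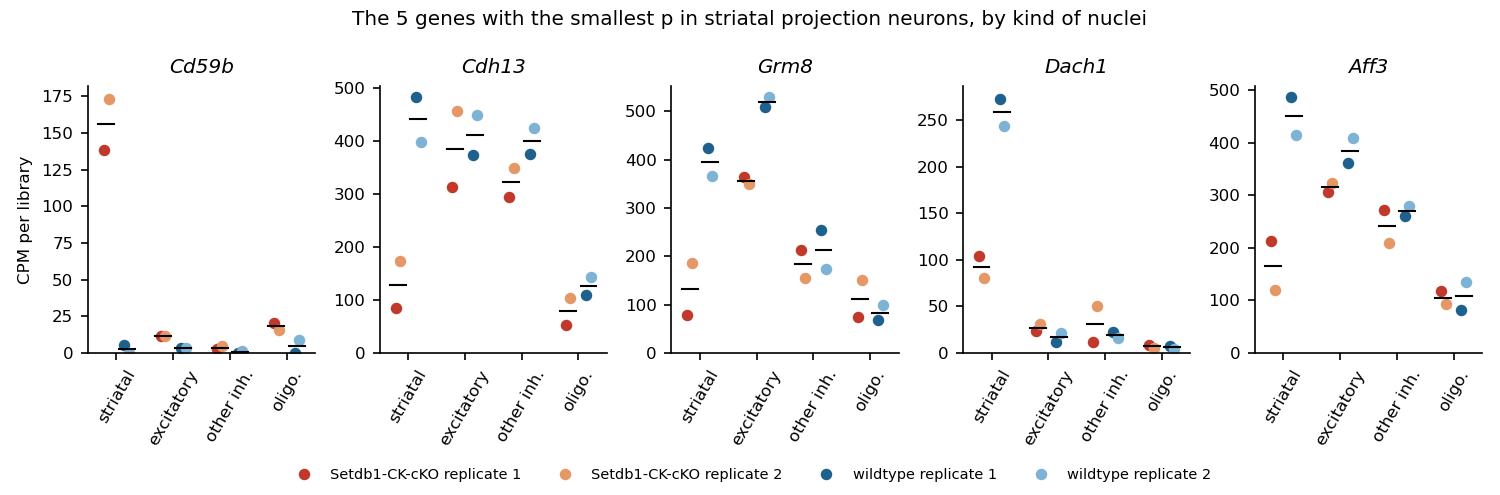
CPM per library (vertical axes) of the 5 genes with the smallest p in striatal projection neurons, in striatal, excitatory, other inhibitory and oligodendrocyte nuclei (horizontal axes). Points are libraries, knockout left of wildtype, and bars are means of 2. Cd59b reaches 138 and 173 CPM in knockout striatal nuclei and stays below 21 elsewhere; Cdh13 in knockout striatal nuclei lies below its excitatory level in the same libraries.

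Striatal identity genes leaned lower in knockout without passing the test. Of 28 genes, 22 were tested, 0 rose or fell past the threshold, 20 had a negative and 2 a positive log2 fold change, and the median was -0.25, where the median of all genes tested was -0.00 and 49.8% were positive. Both knockout libraries were below both wildtype libraries for 13 of the 22 (background 20.1%) and above for 1 (background 17.1%). The summed level of the list was 24366 and 23831 unscaled CPM in knockout and 29978 and 28649 in wildtype striatal nuclei. Excitatory nuclei leaned the same way for this list, at 8317 and 8041 unscaled CPM in knockout and 9325 and 9836 in wildtype. There 23 of 27 tested genes were negative, with a median of -0.15. In other inhibitory nuclei 18 of 22 tested genes were negative, with a median of -0.16. The sum there was 6454 and 5755 unscaled CPM in knockout and 6374 and 6807 in wildtype, which overlap. The lean was thus not particular to striatal nuclei. The median was -0.40 without wildtype replicate 2 and -0.17 with a limit of 4 marker UMIs.

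Single identity genes are given as examples, and the first 4 lie further from 0 than the list median of -0.25. Pde10a had 2738 and 2600 CPM in knockout and 3623 and 4104 CPM in wildtype, a log2 fold change of -0.51 ± 0.15 (edgeR adjusted p = 0.599). Bcl11b, a transcription factor needed for striatal neuron maturation, had 311 and 213 CPM in knockout and 504 and 423 CPM in wildtype (-0.74 ± 0.28, edgeR adjusted p = 0.599). Itpr1, the calcium release channel of the endoplasmic reticulum, had 528 and 560 CPM in knockout and 884 and 774 CPM in wildtype (-0.60 ± 0.22, edgeR adjusted p = 0.599). Ryr3, a ryanodine receptor, had 859 and 867 CPM in knockout and 1147 and 1262 CPM in wildtype (-0.46 ± 0.19, edgeR adjusted p = 0.658). In these 4 genes the groups did not overlap. Both knockout libraries lay below both wildtype libraries in 13 of the 22 identity genes tested, and in 20.1% of all genes tested. Meis2, a homeodomain factor, had 1026 and 1320 CPM in knockout and 1340 and 1042 CPM in wildtype, and Gnal, the G protein subunit that couples dopamine and adenosine receptors to adenylyl cyclase, had 913 and 840 CPM in knockout and 858 and 880 CPM in wildtype, both overlapping. Nuclei with 10 or more marker UMIs, in which identity genes were highest, numbered 17 of 41 and 4 of 20 in knockout and 19 of 38 and 8 of 28 in wildtype, and the part of this mix was not tested.

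Genes of synaptic and dopamine signalling gave no call either. Of 27 tested genes of dopamine and cAMP signalling, 0 passed, 12 were positive and 15 negative, with a median of -0.14. Of 19 tested glutamate receptor genes, 0 passed and 16 were negative, with a median of -0.20. Grin2a, an NMDA receptor subunit, had 1352 and 1400 CPM in knockout and 1806 and 1832 CPM in wildtype (-0.38 ± 0.17, edgeR adjusted p = 0.66). Gria1, an AMPA receptor subunit, had 1263 and 1320 CPM in knockout and 1683 and 1743 CPM in wildtype (-0.39 ± 0.17, edgeR adjusted p = 0.66). Of 14 tested GABA receptor genes, 0 passed and the median was -0.04, and of 24 tested potassium channel genes 0 passed, with 12 positive and 12 negative. Drd2 itself, a rule gene, had 123 and 120 CPM in knockout and 118 and 65.1 CPM in wildtype.

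Setdb1 is the targeted gene. It had 10 and 5 UMIs in knockout and 13 and 7 UMIs in wildtype striatal nuclei, or 49.3 and 66.7 CPM in knockout and 69.7 and 57.0 CPM in wildtype, with overlapping groups (log2 fold change -0.22 ± 0.51, edgeR adjusted p = 0.951). A 3′ tag outside the deleted part does not check a deletion, and the gene overlaps Cers2 on the opposite strand. Of 7 tested genes of histone H3 lysine 9 methylation, 0 passed and 6 were negative, with a median of -0.24. Camk2a, a kinase subunit abundant in projection neurons, had 632 and 640 CPM in knockout and 584 and 684 CPM in wildtype (0.03 ± 0.22, edgeR adjusted p = 0.995).

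Another group comprised 16 genes that had been raised in the excitatory nuclei of these same knockout animals, so that its direction here is not independent evidence. All 16 were called higher in the excitatory nuclei (1.6% of all genes tested there were), which follows from how the list was chosen and is no test of it. In other inhibitory nuclei 9 of 14 tested were called higher (0.208% of all genes tested there were). In striatal nuclei 15 of the 16 had at least 1 UMI and 3 were deep enough to be tested, of which 0 passed. For 13 of the 16 both knockout libraries were above both wildtype libraries, where 13.2% of 16085 genes with at least 1 UMI were. Pecam1, an endothelial adhesion gene and 1 of the 13, had 11 UMIs in 1 nucleus of knockout replicate 1 and 1 UMI in knockout replicate 2, against 2 and 0 UMIs in wildtype. The summed level of the list was 1155 and 1176 unscaled CPM in knockout and 419 and 431 in wildtype striatal nuclei, with no overlap between the genotypes. Without the 3 tested genes the sum was 540 and 374 unscaled CPM in knockout and 126 and 89.6 in wildtype. Excitatory nuclei gave 1398 and 1590 unscaled CPM in knockout and 361 and 412 in wildtype, and oligodendrocyte nuclei gave 847 and 858 in knockout and 558 and 562 in wildtype.

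The tested genes of that group were Mei1, Adk and Gm26672. Mei1 had 98.7 and 173 CPM in knockout and 10.7 and 57.0 CPM in wildtype (2.04 ± 0.60, edgeR adjusted p = 0.592). Gm26672, a predicted transcript that overlaps protocadherin gamma genes on the opposite strand, had 326 and 280 CPM in knockout and 123 and 204 CPM in wildtype (0.98 ± 0.31, edgeR adjusted p = 0.599). Adk, adenosine kinase, had 178 and 347 CPM in knockout and 166 and 81.4 CPM in wildtype (0.88 ± 0.40, edgeR adjusted p = 0.66), and its lowest knockout value lies close to its highest wildtype value. With a library left out, the log2 fold change of Mei1 lay between 1.10 (without wildtype replicate 1) and 3.41 (without wildtype replicate 2). That of Adk lay between 0.46 and 1.55. Among the genes too shallow to test, the long non-coding 3222401L13Rik had 15 and 4 UMIs in knockout and 0 and 0 in wildtype, at least 7.28-fold higher in knockout with 3 UMIs over both wildtype libraries as the floor. Its UMIs were found in 14 of 41 and 3 of 20 knockout nuclei. By the same floor, Bglap3, an osteocalcin-related gene with 9 and 1 UMIs in 7 of 41 and 1 of 20 knockout nuclei, was at least 3.83-fold higher. The non-coding Gm11884 had 11 and 1 UMIs in knockout and 0 and 0 in wildtype, but 8 of them came from 1 nucleus of knockout replicate 1 with 10472 UMIs in all, and no bound is given. C4b, a complement component, had 1 and 2 UMIs in knockout and 0 and 0 in wildtype, which is at the floor, and Zfp541 had 0 in the 4 libraries. These bounds set a floor for the wildtype count only and leave out the counting error of the knockout count, and most of the UMIs came from knockout replicate 1, the deeper one.

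**Figure D5:**
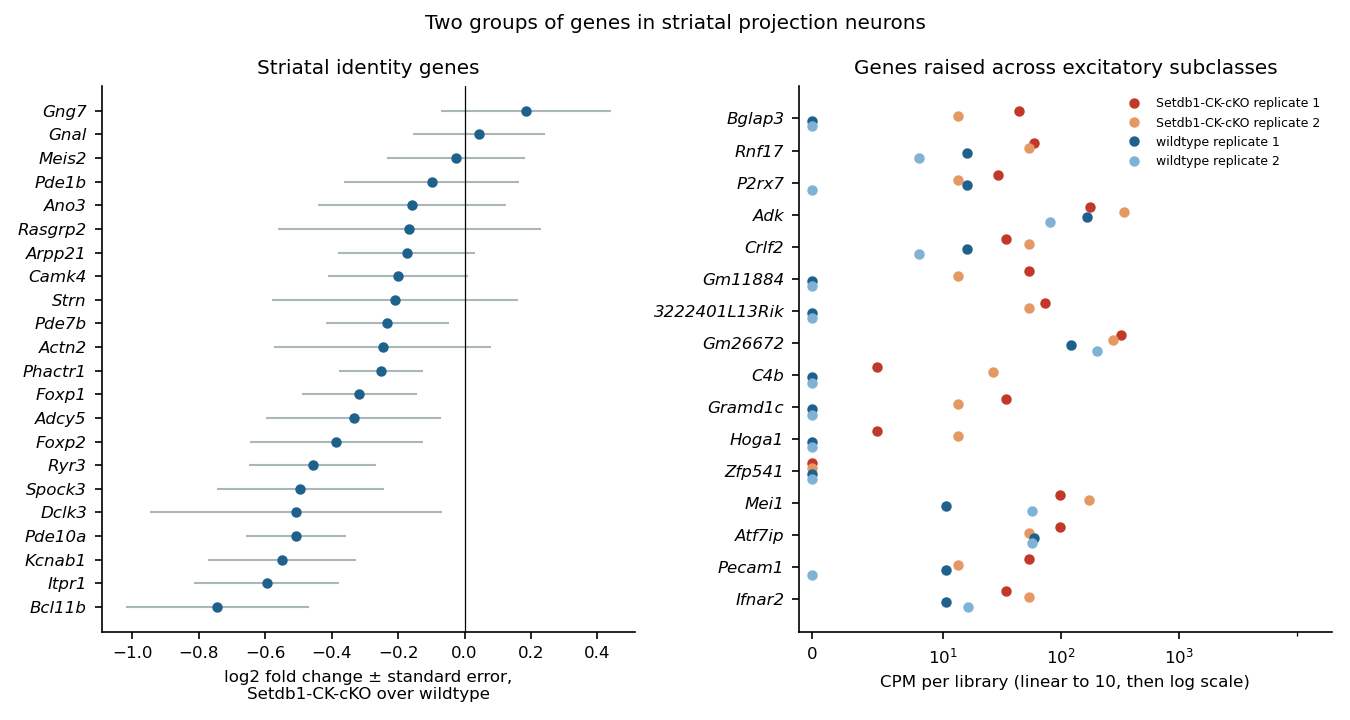
Left, log2 fold change, knockout over wildtype (horizontal axis), with its standard error, of the 22 striatal identity genes tested; 20 lie below 0. Right, CPM per library (horizontal axis, linear to 10 and then logarithmic) of the 16 genes raised in excitatory nuclei, knockout above wildtype within each gene; for 13 of them both knockout points lie right of both wildtype points.

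Other gene groups gave a like picture of small sums. A list of 7 genes had been lower in the excitatory nuclei of these same knockout animals, so its direction here is not independent evidence. All 7 were tested in striatal nuclei and had a negative log2 fold change, and 0 passed, with a median of -0.46. Of all genes tested there, 49.8% were positive. In other inhibitory nuclei all 7 were negative too, with a median of -0.37. The list includes Grm8, above, and Auts2, a neurodevelopmental gene. Auts2 was at 2630 and 2774 CPM in knockout and 3409 and 3469 CPM in wildtype (-0.33 ± 0.15, edgeR adjusted p = 0.66). The clustered protocadherins, neuronal recognition molecules, summed to 187 and 214 unscaled CPM in knockout and 83.8 and 130 in wildtype, with 0 of 56 deep enough to test. Germline and meiotic genes summed to 403 and 334 unscaled CPM in knockout and 162 and 187 in wildtype, and 1 of 30, Mei1, could be tested. Interferon-stimulated genes summed to 111 and 93.5 unscaled CPM in knockout and 68.1 and 57.0 in wildtype, from 22 and 7 UMIs in knockout and 13 and 7 in wildtype. Cytosolic ribosomal protein genes summed to 4609 and 5357 unscaled CPM in knockout and 3629 and 3940 in wildtype. Of 32 tested genes 25 were positive (49.8% of all genes tested were) and 0 were called, with a median of 0.38. The ribosomal sum was also higher in knockout oligodendrocyte nuclei, at 10588 and 10686 unscaled CPM, than in wildtype ones, at 7894 and 8630. Excitatory nuclei had 5258 and 7290 in knockout and 3655 and 3861 in wildtype. Other inhibitory nuclei had 5920 and 6658 in knockout and 4093 and 4515 in wildtype. The rise was thus not particular to striatal nuclei.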

How the data were processed

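Nuclei of the cortex of 4 mice were profiled with 1 droplet 3′ library each. The authors deposited UMI counts without normalization, with genes as rows and barcodes as columns; Cell Ranger 7.1.0 and mm10 are named in the submitters' processing notes. Whether intronic reads and strand were used is not given in the sources used here. In knockout, 38503740 and 38314394 UMIs fell in 11790 and 13902 barcodes, and in wildtype 45605971 and 42780840 UMIs fell in 14493 and 14365 barcodes. The lowest totals were 500 or 501, so barcodes had been filtered before deposit.

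Counts of the chosen nuclei were summed per library and tested with edgeR 4.0.16 in R 4.3.3 (filterByExpr with a minimum count of 10, TMM scaling, quasi-likelihood test, Benjamini-Hochberg adjustment over all genes tested, threshold 0.05). Differences in effect were tested as a genotype by kind-of-nuclei term with library as a covariate. Standard errors are the log2 fold change divided by the root of F. CPM is per 1000000 of all UMIs of the sum after TMM scaling, and unscaled CPM is without it. Excitatory nuclei had at least 3 Slc17a7 and Neurod6 UMIs and 0 Gad UMIs, and oligodendrocyte nuclei at least 10 UMIs of the oligodendrocyte markers and 0 of the neuronal gate genes. Doublets were marked with Scrublet (scanpy 1.11.5, expected rate 10%) and removed only in an alternative. DESeq2 1.42.0 and limma 3.58.1 were alternatives. The scripts were tested on simulated data. Named genes were those called, the 5 with the smallest p in striatal nuclei and in each difference, the genes of the rule, and members of the gene lists. The members and lists were chosen with earlier results of these data known. Nothing in the labels ties replicate numbers to litters or batches, and p-values measure the spread between these 2 animals per genotype. Gene positions are from GENCODE on GRCm38, which held 99.6% of the identifiers, and promoter sequences are from RefSeq on GRCm38.p6.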

Additional observations from a re-analysis of the deposited data

Results flagged for a closer look

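In 3 of 3163 genes (0.0948%) the genotype effect in striatal projection neurons differed from that in cortical excitatory nuclei of the same animals. These 3 passed the test of the difference itself, and the count changed with 1 library left out, as given above. Cdh13 differed by -1.78 on the log2 scale (edgeR adjusted p = 0.0127), Bc1 by -1.61 (edgeR adjusted p = 0.0163) and Erbb4 by 1.18 (edgeR adjusted p = 0.0164). Cdh13 was lower in both knockout libraries than in both wildtype libraries of striatal nuclei. Of its 90 UMIs in wildtype replicate 1, 20 came from 1 nucleus and 17 from another. Bc1 was higher in knockout in excitatory nuclei, mostly in replicate 2, and Erbb4 overlapped between genotypes in striatal nuclei.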

How the results depend on the processing

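The number of genes called, 1, was 1 with DESeq2 size factors and with Scrublet-marked nuclei removed, and 8 with no filter on low counts. It was 14 with a limit of 4 marker UMIs. It was 0 with the DESeq2 test, with limma-voom, with the listed sex as a block, with at least 10 marker UMIs, with 0 Slc17a7 and Neurod6 UMIs, with at most 2 glial UMIs and with equal numbers of nuclei. With 1 library left out, where the lone library of a genotype is assumed to vary like the others, it was 6 to 25: 25 without knockout replicate 1, 17 without knockout replicate 2, 6 without wildtype replicate 1 and 11 without wildtype replicate 2. With the replicate block it was 0; same-numbered libraries did not deviate together (r = 0.04 across 3163 genes), though they had the same sex by Xist and Uty UMIs, so the block also follows that sex. The cause of these changes was not tested.

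The difference from excitatory nuclei (3 genes) was 4 with no filter and 1 to 10 with a library left out, lowest without knockout replicate 1 or wildtype replicate 1. The difference from other inhibitory nuclei (0 genes) was 1 with no filter and 0 to 14 with a library left out. Cd59b lost its call in 8 of 15 alternatives, with adjusted p from 7.20e-07 to 0.785, and fell under the filter without knockout replicate 1. Cdh13 and Grm8 passed in 5 of 16 alternatives each, among them 3 that left out a library. The share of striatal nuclei, 0.0173 percentage points higher in knockout, was -0.00691 with at least 10 marker UMIs and -0.0847 to 0.119 with a library left out, reversed without knockout replicate 1 and, at -0.0164, without wildtype replicate 2. Camk2a turned to -0.046 with no filter and lay between -0.10 (without wildtype replicate 1) and 0.11 with a library left out. Fits by receptor type were not run. With 20 to 41 nuclei per library, most genes lay below the depth needed for a test.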

Other observations

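With every barcode thinned to 2000 UMIs and shallower ones left out (4039 and 5458 in knockout, 5622 and 5433 in wildtype), 7 and 4 nuclei met the rule in knockout and 6 and 5 in wildtype.

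Ebf1, a transcription factor of direct pathway neurons, had 1 and 15 UMIs in the knockout striatal sums and 30 and 14 in the wildtype sums, so that the knockout libraries differed from each other more than the genotypes did. Direct pathway markers as a list summed to 187 and 361 unscaled CPM in knockout and 340 and 334 in wildtype.

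Adarb2, an interneuron marker, was found in 14 of 25 Drd1-only and 2 of 32 Drd2 or Adora2a-only nuclei, and in 29 of the 68 with neither.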
